A study of Mus musculus with 6 samples.

Results

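The genes described here encode the enzymes that make and degrade prostanoids and 3 of the receptors that sense them. They are *Ptgs1* and *Ptgs2* (the cyclooxygenases), *Ptges*, *Ptges2*, *Tbxas1* and *Hpgds* (terminal synthases), *Hpgd* (a degrading enzyme), and *Ptger2*, *Ptger4* and *Ptgir* (receptors). The members were taken by exact gene symbol, by a rule that used no measured value, although the set was chosen with earlier results of these data known, and all 10 were found among the 19309 rows of the count table. All 10 also passed the filter on low counts (mean count above 5), which left 13785 genes to test.

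RNA was sequenced from M2c macrophages of mice lacking the soluble epoxide hydrolase (sEH-/-) and of wild-type mice, with 3 libraries of each genotype. sEH is the *Ephx2* product that hydrolyses epoxides of polyunsaturated fatty acids to diols, and the deletion was constitutive and present in every tissue. Bone marrow monocytes were taken from age- and strain-matched littermates 8 to 10 weeks old. The labels give neither sex nor strain. The paper states that the work following its comparison of the sexes used bone marrow of female mice, and its methods say that this held for most experiments. The monocytes were grown for 7 days with macrophage colony-stimulating factor and granulocyte-macrophage colony-stimulating factor (15 ng/mL each). Cells of both genotypes then received lipopolysaccharide (10 ng/mL) and interferon-γ (1 ng/mL) for the M1 step, followed by transforming growth factor β1 (TGF-β1, 10 ng/mL) to move them to the M2c state. The M1 step lasted 24 h and TGF-β1 48 h by the series' design text, but 12 h and either 24 or 48 h by the methods. Every library had been through both steps, so the response of a gene to either step could not be measured here. The libraries of a genotype came from separate mice, and p-values measure the spread between these few animals.

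Prostanoids are short-lived lipid mediators made from arachidonic acid. A cyclooxygenase converts the acid to prostaglandin H2, and a terminal synthase turns that intermediate into prostaglandin E2, prostaglandin D2, prostacyclin or thromboxane A2. Cyclooxygenase-1 is made in most resting cells, whereas cyclooxygenase-2 and the microsomal prostaglandin E synthase encoded by *Ptges* are induced in macrophages by bacterial products and cytokines. Prostaglandin E2 and prostacyclin act on G-protein-coupled receptors, of which EP2, EP4 and the prostacyclin receptor raise cAMP, a signal that dampens many inflammatory functions of macrophages.

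Library totals ranged from 4400197 to 6096440 counts. *Ephx2* (chromosome 14, 66084374 to 66124500 of mm10, minus strand) was counted 4, 2 and 1 times in the sEH-/- libraries versus 26, 49 and 57 in the wild-type libraries, a log2 fold change of −4.05 (SE 0.43, edgeR adjusted p = 0.0042), so each library matched its label. All 8 macrophage markers examined, such as *Csf1r*, *Adgre1* and *Mertk*, were present in every library. Their summed level was 1994 to 2409 counts per 1000000 (CPM) in sEH-/- versus 1763 to 2164 CPM in wild-type libraries. Counts of *Lyz2* stayed between 1153 and 1173 in every library, so its CPM varied mainly with the library total. None of these markers was called. *Cd14* was higher in every sEH-/- library (log2 fold change 0.50, edgeR adjusted p = 0.029), under the 1.5-fold limit. No marker of another cell type that had enough counts to be tested was called, and none of the mast cell, basophil or lymphocyte markers had enough. The mast cell and lymphocyte markers with a row (*Kit* and *Klrb1c*) had 0 to 4 counts per library. The neutrophil markers summed to 27.3 to 31.3 CPM in sEH-/- versus 17.1 to 21.5 CPM in wild-type libraries, nearly all of it *S100a8*, and the collagen genes *Col1a1* and *Col1a2* reached 121 and 171 counts in wild-type replicate 2. The dendritic cell markers summed to 36.3 to 67.7 CPM in sEH-/- versus 50.9 to 68.4 CPM in wild-type libraries. Of these, *Zbtb46* had a log2 fold change of −0.98 (edgeR adjusted p = 0.115), *Clec9a* −0.31 (0.539), *Ccr7* −0.095 (0.917) and *Clec10a* 0.34 (0.463). Among platelet markers *Itga2b* had −1.09 (0.084) and *Treml1* −0.24 (0.676), while *Pf4* had 0.18 (0.261) and *Ppbp* 0.90 (0.312). The part of these other cells in the results was not tested. In bulk RNA, fewer cells expressing a gene and less of its RNA per cell cannot be told apart.

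No member differed between the genotypes by the criterion used here, an edgeR adjusted p under 0.05 together with a change of more than 1.5-fold. This criterion called 360 of the 13785 tested genes (2.61%), of which 208 were higher in sEH-/- libraries (1.51%). At an adjusted p under 0.05 with any size of change the count was again 0 of 10 members, against 4.01% of tested genes. The unadjusted p was under 0.05 for 4 members, *Ptges*, *Ptger2*, *Ptgs1* and *Ptger4*, as it was for 23.4% of tested genes. For these same 4 members the CPM of the genotypes did not overlap, and in each the sEH-/- libraries were higher. Non-overlapping groups were found for 26.3% of tested genes in either direction and for 11.8% with sEH-/- higher. The fitted log2 fold change was above 0 for 8 of the 10 members, with a median of 0.27 and a range of −0.23 to 0.52. Over all tested genes 49.8% were above 0 and the median was −0.00085, and among the 9275 genes averaging 100 counts or more 49.9% were above 0. DESeq2 also called no member, although 1 (*Ptges*) had an adjusted p under 0.05 and 5 members had an unadjusted p under 0.05. limma-voom gave 0 called and 4 with an unadjusted p under 0.05.

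**Figure D1:**
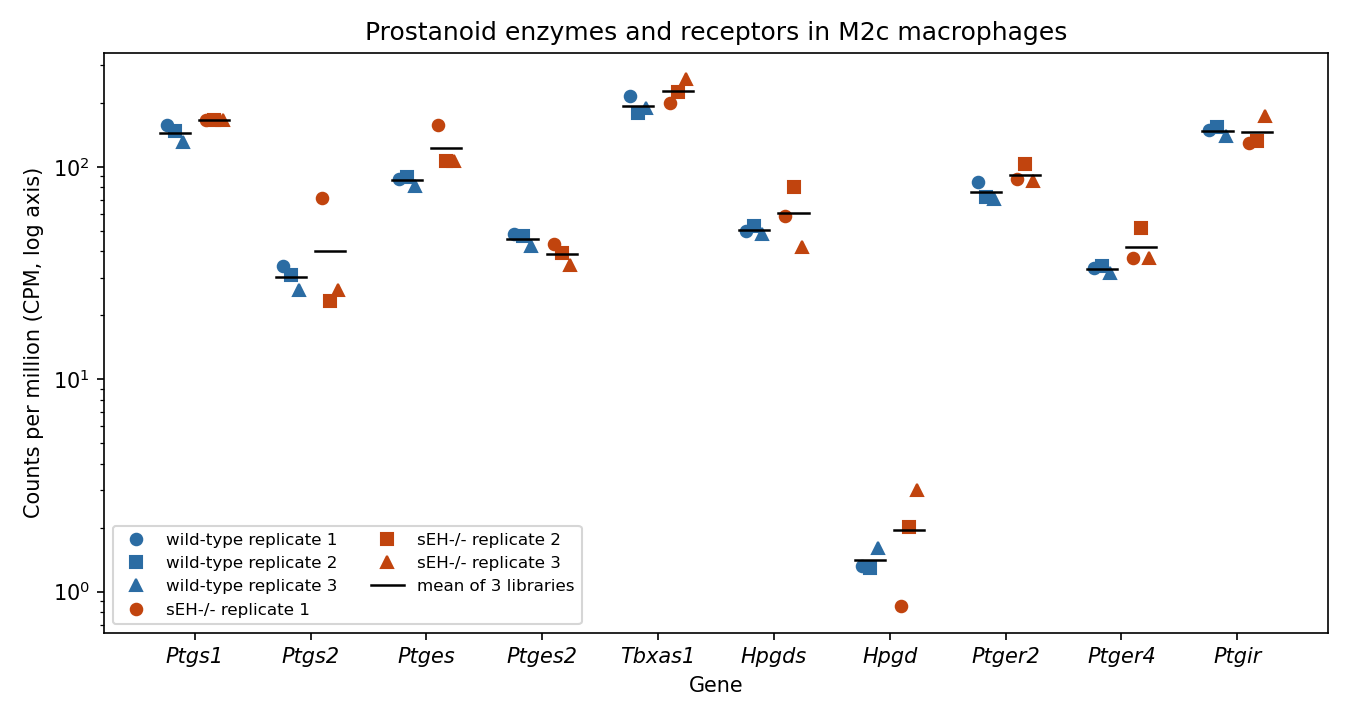
Level of each gene (x axis) in CPM on a log axis (y axis) in the 3 wild-type (blue) and 3 sEH-/- (red) libraries, with a symbol for each replicate number and a black line at the mean of each genotype. *Ptgs2* stands at 71.0 CPM in sEH-/- replicate 1 and at 23.4 to 34.2 CPM in the other libraries, while the sEH-/- points of *Ptgs1* lie almost on each other and above all wild-type points.

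**Figure D2:**
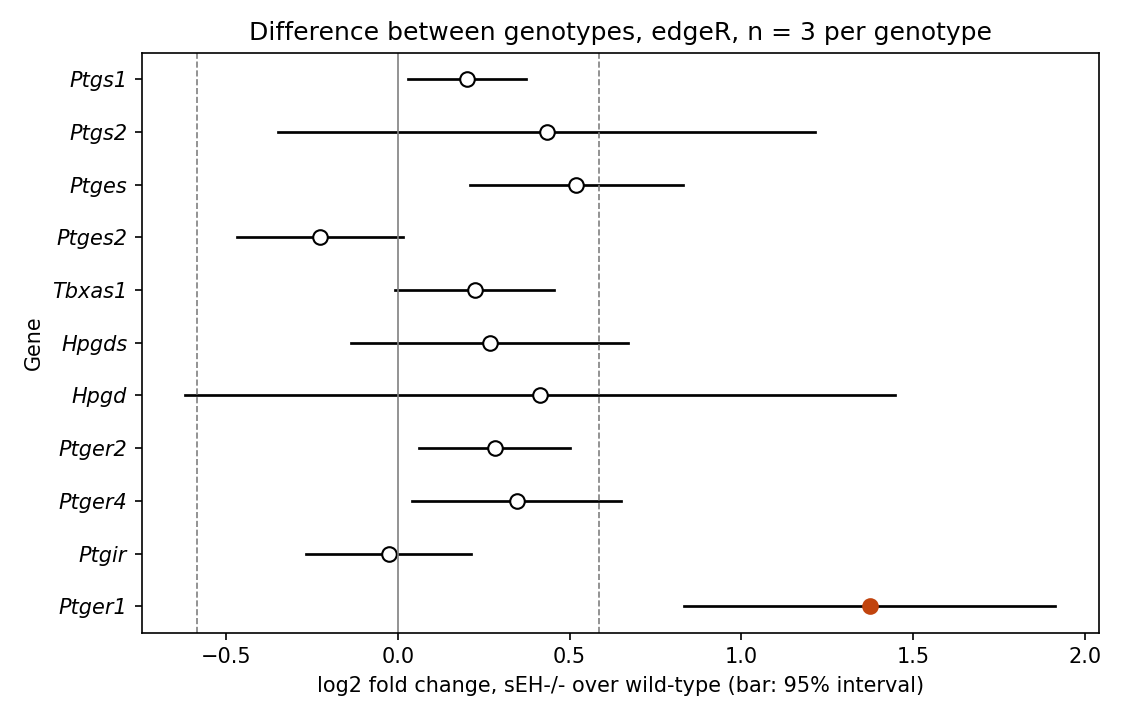
Log2 fold change of sEH-/- over wild-type (x axis) for the 10 genes and for *Ptger1* (y axis), with bars for the 95% interval of the edgeR fit and dashed lines at a 1.5-fold change either way. *Ptger1* is filled because it passed the criterion, and its interval lies wholly beyond the dashed line, while no other gene has an adjusted p under 0.05.

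To compare the members with each other, CPM was divided by the length of each gene's principal transcript in kilobases. *Tbxas1* had the highest level, with a median of 103.8 CPM per kb over the 6 libraries (range 89.6 to 129.6). *Ptgs1* followed at 56.1 (45.4 to 58.2), *Ptgir* at 43.5 (39.1 to 52.5), *Ptges* at 26.8 (22.3 to 43.0) and *Ptger2* at 23.1 (19.2 to 27.9). The lower part of the order was *Hpgds* at 14.7 (12.1 to 23.0), *Ptger4* at 10.8 (9.51 to 15.5), *Ptges2* at 8.58 (6.93 to 9.65), *Ptgs2* at 6.41 (5.25 to 16.0) and *Hpgd* at 0.87 (0.51 to 1.79) CPM per kb. Only *Tbxas1* against *Ptgs1* and *Ptgs2* against *Hpgd* had ranges that did not touch, and the other neighbours in this order overlapped across libraries. Within single libraries the order was steadier. Each neighbouring pair kept its order in all 6 libraries, except *Ptgir* over *Ptges* and *Ptges2* over *Ptgs2*, which kept it in 5. These M2c cells therefore held more RNA per kilobase for cyclooxygenase-1 than for cyclooxygenase-2 in every library of both genotypes, with *Ptgs1* at 45.4 to 58.2 and *Ptgs2* at 5.25 to 16.0 CPM per kb.

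The cyclooxygenases catalyse the committed step. *Ptgs1* (chromosome 2, 36230426 to 36252272, plus strand) had counts of 969, 828 and 716 in the sEH-/- libraries, or 165.5, 166.8 and 165.7 CPM. In the wild-type libraries it had 713, 910 and 727 counts, or 156.5, 147.4 and 130.1 CPM. Every sEH-/- library was above every wild-type library. The means were 166.0 ± 0.69 and 144.6 ± 13.4 CPM (SD, n = 3 each), a log2 fold change of 0.20 (SE 0.078) with an edgeR adjusted p of 0.153. The 95% interval of the change ran from 1.02-fold to 1.29-fold, so a difference of 1.5-fold lay outside it. Across the 15 alternative fits the log2 fold change stayed between 0.13 and 0.26 and the adjusted p between 0.088 and 0.45.

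*Ptgs2* (chromosome 1, 150100031 to 150108227, plus strand) was high in a single animal. Its sEH-/- counts were 416, 116 and 113 (71.0, 23.4 and 26.2 CPM), against 156, 190 and 147 in the wild-type libraries (34.2, 30.8 and 26.3 CPM). sEH-/- replicate 1 was above all 5 other libraries, and the other 2 sEH-/- libraries were below the lowest wild-type library. The means were 40.2 ± 26.8 CPM in sEH-/- versus 30.4 ± 3.98 CPM in wild-type libraries (SD, n = 3 each). The fitted log2 fold change was 0.43 (SE 0.35, edgeR adjusted p = 0.508), with a 95% interval from 0.785-fold to 2.32-fold. Without sEH-/- replicate 1 the sign turned, to −0.30 with an adjusted p of 0.225, and over all alternative fits the adjusted p lay between 0.225 and 0.800. The direction of *Ptgs2* therefore rested on that library, and no difference between the genotypes was detectable.

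The library with high *Ptgs2* also stood apart for 2 genes of the marker lists, which were picked out after their values were seen. *Pecam1*, an adhesion molecule of endothelial cells and some leukocytes, had 78 counts there and 15 to 21 in the other libraries. *Ppbp*, a platelet and megakaryocyte chemokine that monocytes can also make, had 50 counts there and 10 to 15 elsewhere. Their part in the *Ptgs2* value was not tested. Of the other platelet and endothelial markers, *Pf4* had 63.4 CPM in that library and 51.3 to 64.3 CPM in the others. *Kdr* had 41.0 CPM in that library against 33.3 to 52.0, and *Itga2b* 2.22 against 1.81 to 6.15. *Treml1* was lowest in that library, at 5.12 against 6.24 to 11.8 CPM. *Cdh5* and *Gp5* had 2 to 9 and 0 to 1 counts per library. The stromal genes *Pdgfrb* and *Dcn* were highest in that library, while *Col1a1*, *Col1a2* and *Col3a1* were highest in wild-type replicate 2.

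The ratio of the 2 cyclooxygenases within a library is independent of library size. The log2 ratio of *Ptgs2* to *Ptgs1* counts was −1.22, −2.83 and −2.66 in the sEH-/- libraries versus −2.19, −2.26 and −2.30 in the wild-type libraries. The wild-type ratios lay within a narrow band, and the sEH-/- ratios lay above it once and below it in the other 2 libraries. The mean difference was 0.013 (two-sided exact permutation p = 1.0 and Benjamini-Hochberg p = 1.0 over 3 ratios, where 0.1 is the smallest p that 3 against 3 libraries allow).

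*Ptges* and *Ptgs2* were both highest in sEH-/- replicate 1 and are classically induced together, so their promoters are printed beside that of *Ptgs1*, the constitutive isoform. Each sequence runs 5′ to 3′ on the gene's own strand over 250 bases before and 50 bases from the annotated start, from RefSeq on GRCm38.p6. For *Ptges* this start lies inside the span that GENCODE gives for the gene (30889471 to 30929863), not at its upstream end. Which start these cells used was not tested. Capitals mark matches, on either strand, to a C/EBP pattern (TTNNGNAA), the short cAMP response element (TGACG), the E-box (CACGTG), the TATA box (TATAAA) or the GC box (GGGCGG). The NF-kB core (GGNNNTTCC) and the full cAMP response element (TGACGTCA) were searched the same way and had no match in these 3 windows.
Ptgs2, chr1:150099781-150100080, plus strand: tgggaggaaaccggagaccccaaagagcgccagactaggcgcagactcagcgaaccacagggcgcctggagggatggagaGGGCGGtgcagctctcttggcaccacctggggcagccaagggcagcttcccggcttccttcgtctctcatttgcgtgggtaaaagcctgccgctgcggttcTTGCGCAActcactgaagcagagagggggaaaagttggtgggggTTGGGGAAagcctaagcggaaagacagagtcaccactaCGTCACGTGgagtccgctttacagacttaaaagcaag
Ptges, chr2:30903248-30903547, minus strand: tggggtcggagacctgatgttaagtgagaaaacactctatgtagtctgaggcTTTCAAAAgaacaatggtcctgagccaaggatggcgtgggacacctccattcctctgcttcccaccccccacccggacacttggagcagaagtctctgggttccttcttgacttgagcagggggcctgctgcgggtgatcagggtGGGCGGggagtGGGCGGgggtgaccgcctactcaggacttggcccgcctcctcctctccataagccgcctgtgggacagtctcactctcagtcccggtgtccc
Ptgs1, chr2:36230176-36230475, plus strand: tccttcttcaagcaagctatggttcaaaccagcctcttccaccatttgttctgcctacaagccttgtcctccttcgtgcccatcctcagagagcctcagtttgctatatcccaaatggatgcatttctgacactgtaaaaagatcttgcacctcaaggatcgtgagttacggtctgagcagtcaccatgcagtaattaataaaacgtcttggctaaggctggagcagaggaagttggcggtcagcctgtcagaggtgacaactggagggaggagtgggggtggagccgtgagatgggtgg

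The *Ptgs2* window held 2 C/EBP matches, beginning at −69 and −25 from the start, a GC box at −170, and a short cAMP response element at 14 that shares letters with an E-box at 17. The *Ptges* window held 1 C/EBP match at −198 and GC boxes at −53 and −42. The *Ptgs1* window held none of the capitalised patterns. The Smad pattern (CAGAC) was not capitalised and occurred in each of these windows. It began at −220, −209 and 35 in *Ptgs2*, and on the other strand at −207 in *Ptges* and −79 in *Ptgs1*. Promoters of all 10 members were matched by symbol in the RefSeq set. A C/EBP match occurred in 6 of 10 members and in 40.7% of all 32851 promoters of the same length. The other shares were 1 of 10 and 20.8% for the short cAMP response element, 2 and 7.15% for the E-box, 2 and 13.6% for the TATA box, 5 and 35.7% for the GC box, and 9 and 49.6% for the Smad pattern. The NF-kB core had 0 of 10 against 18.5%, and the full cAMP response element 0 of 10 against 1.79%. A missing match says only that these letters are not in this window.

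Among the terminal synthases, *Ptges* had the smallest p of all members. It encodes the inducible microsomal prostaglandin E synthase (chromosome 2, 30889471 to 30929863, minus strand). The sEH-/- libraries had 918, 527 and 458 counts (156.8, 106.2 and 106.0 CPM) and the wild-type libraries 401, 553 and 454 counts (88.0, 89.6 and 81.2 CPM). All 3 sEH-/- libraries were above all wild-type libraries, and replicate 1 stood well above the other 2. The means were 123.0 ± 29.3 and 86.3 ± 4.43 CPM (SD, n = 3 each). The fitted log2 change was 0.52 (SE 0.14), or 1.43-fold with a 95% interval from 1.16 to 1.78, with an unadjusted p of 0.0038 and an edgeR adjusted p of 0.063. The adjusted p lay between 0.010 and 0.216 over the alternative fits. DESeq2 gave 0.010 and edgeR without the low-count filter gave 0.042, both with the change still under 1.5-fold. Leaving out sEH-/- replicate 1 gave a log2 fold change of 0.30 with an adjusted p of 0.046, and leaving out sEH-/- replicate 3 gave 0.62 with an adjusted p of 0.039, the only alternative in which any member met both parts of the criterion.

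*Ptges2*, which encodes a second membrane-associated prostaglandin E synthase (chromosome 2, 32395896 to 32405772, plus strand), had the lowest fitted change of the members. Its counts were 253, 194 and 149 in sEH-/- versus 219, 291 and 236 in wild-type libraries, or 43.2, 39.1 and 34.5 against 48.1, 47.1 and 42.2 CPM. The genotypes overlapped only through sEH-/- replicate 1, which was just above wild-type replicate 3. Its log2 fold change was −0.23 (SE 0.11, edgeR adjusted p = 0.242), with a 95% interval from 0.722-fold to 1.01-fold. It was below 0 in all 15 alternative fits, from −0.31 to −0.14.

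*Tbxas1* encodes thromboxane A synthase (chromosome 6, 38875404 to 39084585, plus strand) and was the most abundant member. It had 1165, 1111 and 1114 counts in sEH-/- versus 976, 1101 and 1062 in wild-type libraries, or 199.0, 223.8 and 257.8 against 214.2, 178.3 and 190.0 CPM. Wild-type replicate 1 lay between the sEH-/- libraries, so the genotypes overlapped. The fitted log2 change was 0.22 (SE 0.10, edgeR adjusted p = 0.228), with a 95% interval from 0.995-fold to 1.37-fold. Its counts spanned only 1.19-fold although library totals spanned 1.39-fold, and at 0.547 counts per base of the principal transcript it was the member with the densest counts. Its CPM was highest in sEH-/- replicate 3, which had the lowest library total, and lowest in wild-type replicate 2, which had the highest. With the library total as a covariate the log2 fold change was 0.15 (edgeR adjusted p = 0.142). Duplicate reads had been removed before counting, but how far this changed the difference in *Tbxas1*, in either direction, was not tested. A fit adjusted for saturation at 1 count per base used all annotated exons, over which *Tbxas1* had only 0.120 counts per base.

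*Hpgds* encodes the haematopoietic prostaglandin D synthase (chromosome 6, 65117293 to 65144908, minus strand). It varied more among sEH-/- than among wild-type libraries, with 345, 397 and 181 counts against 227, 324 and 271, or 58.9, 80.0 and 41.9 against 49.8, 52.5 and 48.5 CPM. sEH-/- replicate 2 was the highest library and sEH-/- replicate 3 the lowest, with all wild-type libraries between them. Its log2 fold change was 0.27 (SE 0.18, edgeR adjusted p = 0.418) and fell to 0.033 without sEH-/- replicate 2.

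*Hpgd* encodes 15-hydroxyprostaglandin dehydrogenase, which inactivates prostaglandin E2 (chromosome 8, 56294585 to 56321043, plus strand). It was barely detected, with 5, 10 and 13 counts in sEH-/- versus 6, 8 and 9 counts in wild-type libraries. The sEH-/- libraries held both the lowest and the highest value. The summed counts were 28 and 23, a ratio of 1.29 after scaling for library size, and its exact 95% interval of 0.718 to 2.35 reflects counting error alone. The fitted log2 fold change was 0.41 (SE 0.47, edgeR adjusted p = 0.643), and it was −0.0011 without sEH-/- replicate 3. No difference was detectable at this depth. The log2 ratio of *Ptges* to *Hpgd* counts, synthesis against inactivation, was 7.38, 5.65 and 5.09 in sEH-/- versus 5.95, 6.02 and 5.58 in wild-type libraries (two-sided exact permutation p = 0.9, Benjamini-Hochberg p = 1.0).

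The receptors were at moderate levels. *Ptger2*, the gene of the prostaglandin E2 receptor EP2 (chromosome 14, 44988195 to 45003820, plus strand), had 511, 510 and 370 counts in sEH-/- versus 386, 445 and 395 in wild-type libraries. In CPM these were 87.3, 102.7 and 85.6 against 84.7, 72.1 and 70.7. The groups did not overlap, but the gap between sEH-/- replicate 3 and wild-type replicate 1 was small beside the spread within either group. The means were 91.9 ± 9.43 and 75.8 ± 7.73 CPM (SD, n = 3 each), a log2 fold change of 0.28 (SE 0.099, edgeR adjusted p = 0.120). The 95% interval ran from 1.04-fold to 1.42-fold.

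*Ptger4*, the gene of the second cAMP-raising prostaglandin E2 receptor, EP4 (chromosome 15, 5206661 to 5244187, minus strand), had 218, 255 and 161 counts in sEH-/- versus 152, 211 and 176 in wild-type libraries. In CPM these were 37.2, 51.4 and 37.3 against 33.4, 34.2 and 31.5, with every sEH-/- library above every wild-type library and replicate 2 the highest. The fitted log2 change was 0.35 (SE 0.14, edgeR adjusted p = 0.161) and 0.19 without sEH-/- replicate 2. Of its exonic bases 16.5% lie opposite other annotated genes, the highest share among the members, and the methods state that reads were assigned by strand. The log2 ratio of *Ptger4* to *Ptger2* counts was −1.23, −0.999 and −1.20 in sEH-/- versus −1.34, −1.07 and −1.16 in wild-type libraries, a mean difference of 0.052 (two-sided exact permutation p = 0.7, Benjamini-Hochberg p = 1.0).

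*Ptgir*, the gene of the prostacyclin receptor (chromosome 7, 16906490 to 16910905, plus strand), was nearly level. It had 757, 656 and 750 counts in sEH-/- versus 677, 950 and 778 in wild-type libraries, or 129.3, 132.1 and 173.6 against 148.6, 153.9 and 139.2 CPM. sEH-/- replicate 3 was the highest library and the other 2 sEH-/- libraries were the lowest. Its log2 fold change was −0.027 (SE 0.11, edgeR adjusted p = 0.910), and the 95% interval ran from 0.831-fold to 1.16-fold. For 5 of the 10 members, *Ptgs1*, *Ptges2*, *Tbxas1*, *Ptger2* and *Ptgir*, the whole 95% interval lay inside a 1.5-fold change either way. For *Ptgs2*, *Ptges*, *Hpgds*, *Hpgd* and *Ptger4* the interval reached past 1.5-fold.

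**Figure D3:**
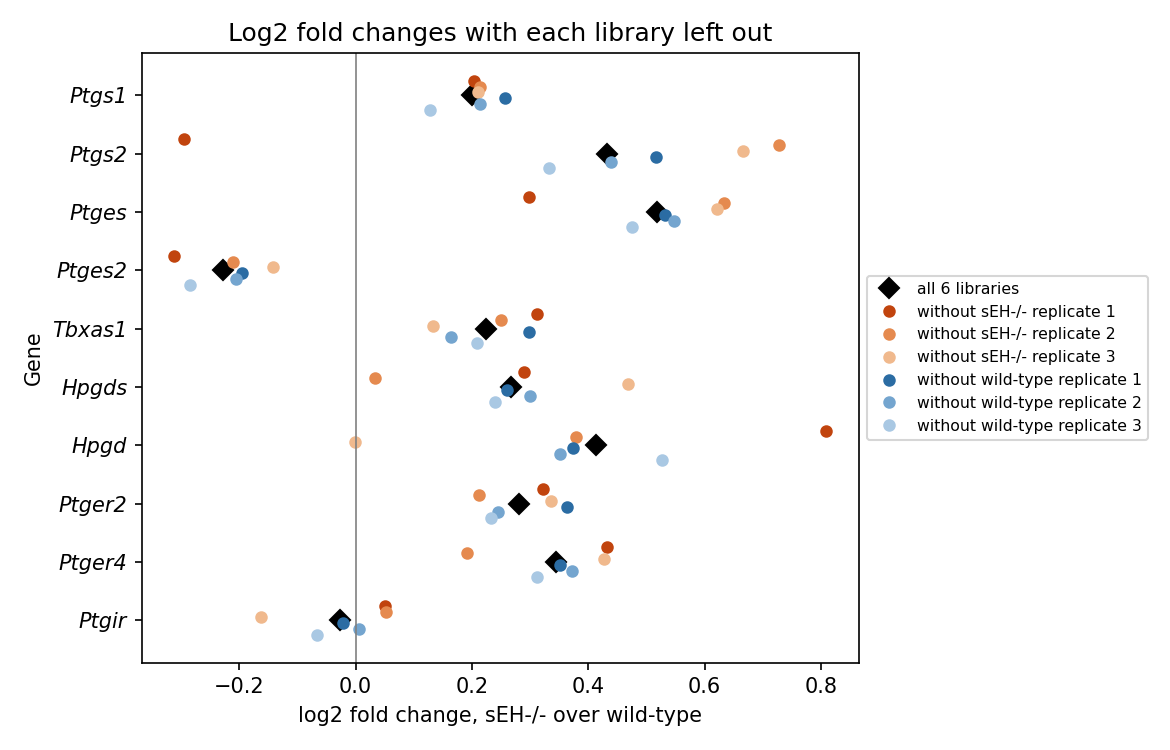
Log2 fold change of sEH-/- over wild-type (x axis) for each gene (y axis) in the fit of all 6 libraries (black diamonds) and in the 6 fits that each leave out 1 library (circles, red shades for sEH-/- and blue shades for wild-type replicates). *Ptgs2* moves from 0.43 to −0.30 without sEH-/- replicate 1, whereas *Ptges*, *Ptgs1*, *Ptger2* and *Ptger4* stay above 0 in every fit.

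The rest of the pathway was read from a list of 31 further genes: the other synthases, receptors, reductases, transporters and the G proteins of the receptors. Of these 24 had a row and 19 were tested, 1 gene was called higher and none lower, and 4 had an unadjusted p under 0.05. The median log2 fold change was 0.064, with 11 of 19 above 0. Over all tested genes 2.61% were called, 23.4% had an unadjusted p under 0.05 and 49.8% were above 0. The prostacyclin synthase gene *Ptgis*, the receptor genes *Ptger3* and *Ptgdr2*, and the reductase genes *Cbr2* and *Akr1c18* had 0 to 3 counts per library and were not tested. *Ptgis* thus had 0 to 3 counts in libraries where *Ptgir*, the receptor of the same prostanoid, had 656 to 950. The 3 tested genes with the highest mean raw count, not scaled for length, encode G protein α subunits and were not called. *Gna13* had a log2 fold change of −0.17 (edgeR adjusted p = 0.260), *Gnai2* of 0.11 (0.566) and *Gnas*, which couples EP2, EP4 and the prostacyclin receptor to cAMP, of 0.064 (0.753).

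The called gene was *Ptger1*, which encodes EP1, a prostaglandin E2 receptor linked to calcium rather than to cAMP (chromosome 8, 83666678 to 83672753, plus strand). It had 99, 83 and 44 counts in sEH-/- versus 28, 32 and 32 in wild-type libraries, or 16.9, 16.7 and 10.2 against 6.14, 5.18 and 5.73 CPM. Every sEH-/- library was above every wild-type library, with replicate 3 the lowest of the sEH-/- libraries. The means were 14.6 ± 3.83 and 5.68 ± 0.48 CPM (SD, n = 3 each), a log2 fold change of 1.37 (SE 0.24, edgeR adjusted p = 0.022). The log2 fold change stayed between 1.26 and 1.58 in all alternative fits and the adjusted p between 0.00077 and 0.124, but the call was lost without sEH-/- replicate 2 (adjusted p = 0.061), and likewise on omitting replicate 2 (0.122) or replicate 3 (0.124) of the wild-type group. Of its exonic bases 71.0% lie opposite other annotated exons, so its counts are uncertain as far as reads of the opposite strand could reach them. Reads were assigned by strand according to the methods, and how many of the other strand were counted was not tested.

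Prostanoid synthesis needs free arachidonic acid. The substrate list held 16 genes of phospholipases, monoacylglycerol and diacylglycerol lipases and enzymes that return the acid to phospholipids, of which 15 were tested and 1 was called higher. The median log2 fold change was 0.025, and 3 had an unadjusted p under 0.05. The shares over all tested genes were 2.61% called and 23.4% with such a p. The called gene was *Lpcat2*, a lysophospholipid acyltransferase that also makes platelet-activating factor. It had 737, 837 and 646 counts in sEH-/- versus 518, 525 and 545 in wild-type libraries, a log2 fold change of 0.59 (SE 0.12, edgeR adjusted p = 0.033). This is only just past the 1.5-fold limit, and the call was lost in 7 of 15 alternative fits. *Plcg2*, a phospholipase C gene, had 1144, 1058 and 852 against 752, 918 and 831 counts and an adjusted p of 0.026 with a log2 fold change of 0.39, under the limit. The remaining gene with an unadjusted p under 0.05 was *Pla2g6*, a phospholipase A2 gene, which was lower in sEH-/- libraries. Its levels were 46.1, 45.3 and 42.6 CPM in sEH-/- versus 46.3, 62.5 and 62.1 CPM in wild-type libraries (log2 fold change −0.36, edgeR adjusted p = 0.108). *Pla2g4a*, named after its values were seen, is the cytosolic phospholipase A2 that releases arachidonic acid. It had 710, 645 and 592 counts in sEH-/- versus 623, 754 and 686 in wild-type libraries, a log2 fold change of 0.025 (SE 0.076, edgeR adjusted p = 0.882). Beside *Plcg2*, the genes of this list with the highest mean raw count were *Acsl4*, with a log2 fold change of 0.11 (adjusted p = 0.394), and *Abhd12*, with −0.034 (0.864).

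EP2, EP4 and the prostacyclin receptor signal through cAMP, and 30 of the 33 genes listed for cAMP synthesis, breakdown and response were tested. The median log2 fold change was 0.041, and 10 had an unadjusted p under 0.05, against 23.4% of all tested genes. In this list 1 gene was called higher and none lower, against 2.61% of all tested genes called. The called gene was *Pde4b*, a cAMP-degrading phosphodiesterase whose transcription cAMP itself can raise. It had 510, 500 and 281 counts in sEH-/- versus 176, 138 and 149 in wild-type libraries, a log2 fold change of 1.55 (SE 0.20, edgeR adjusted p = 0.0087). Every sEH-/- library was above every wild-type library. The log2 fold change lay between 1.38 and 1.79 in the alternative fits, the adjusted p between 1.2e-12 and 0.084, and the call was lost only without wild-type replicate 3 (adjusted p = 0.084). *Pde3b*, a further phosphodiesterase gene, had a log2 fold change of 0.48 (adjusted p = 0.049), under the 1.5-fold limit. Other phosphodiesterase genes, named after their values were seen, went both ways. *Pde7a* had −0.43 (adjusted p = 0.068), *Pde4a* −0.097 (0.614), *Pde4d* −0.018 (0.944) and *Pde8a* 0.21 (0.176). *Prkar2a*, a protein kinase A subunit gene named likewise, had −0.38 (0.065). Of the 30 tested genes 18 were above 0 and 12 below, against 49.8% of all tested genes above 0. The 3 genes of the list with the highest mean raw count were not called. *Adcy7*, an adenylyl cyclase gene, had a log2 fold change of 0.34 (adjusted p = 0.076), *Grk2*, a receptor kinase gene, had 0.15 (0.373), and *Prkar1a*, a regulatory subunit of protein kinase A, had 0.091 (0.530).

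The last list held 23 genes that control transcription, mRNA stability or protein turnover of cyclooxygenase-2 and *Ptges*. All 23 were tested, and the median log2 fold change was 0.058 with 17 of 23 above 0, against 49.8% of all tested genes. An unadjusted p under 0.05 was found for 7, against 23.4%, and 1 was called higher, against 2.61% called either way. The called gene was *Cav1*, which encodes caveolin-1, a membrane scaffold that can promote degradation of cyclooxygenase-2. It had 904, 1070 and 717 counts in sEH-/- versus 642, 666 and 593 in wild-type libraries, a log2 fold change of 0.60 (SE 0.14, edgeR adjusted p = 0.045), and the call was lost in 6 of 15 alternative fits. *Celf2*, an RNA-binding protein gene, had a log2 fold change of 0.40 (adjusted p = 0.048), under the limit. The 3 genes with the highest mean raw count were the kinase genes *Mapkapk2* and *Mapk14*, with 0.034 (adjusted p = 0.854) and 0.18 (0.208), and *Sp1*, whose product binds GC boxes, with −0.22 (0.136). The next 3 genes were named after their values were seen. The NF-kB subunit genes *Nfkb1* and *Rela* had 0.29 (adjusted p = 0.051) and 0.056 (0.678), and *Cebpb*, whose product binds C/EBP patterns such as those in the *Ptgs2* window, had 0.084 (0.613).

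**Figure D4:**
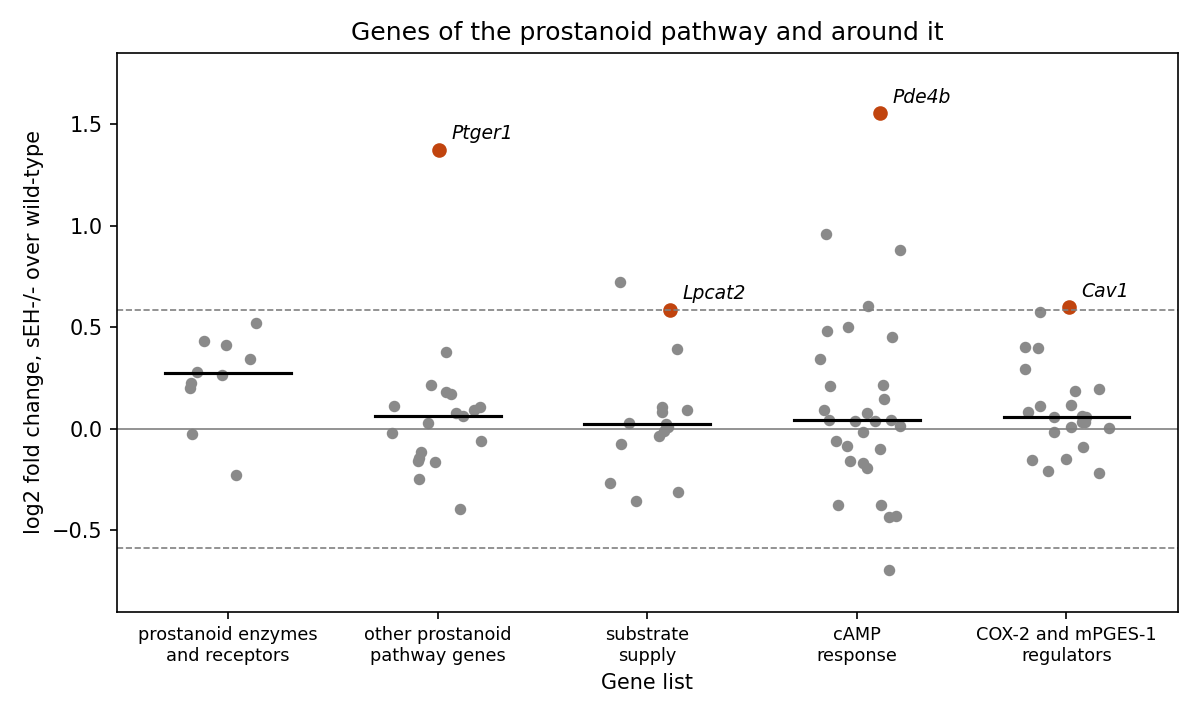
Log2 fold change of sEH-/- over wild-type (y axis) for every tested gene of the 5 gene lists (x axis), with points spread sideways for legibility, black lines at the medians and dashed lines at a 1.5-fold change. Called genes are red and named. The median of the prostanoid enzymes and receptors is 0.27 and those of the other lists lie between 0.025 and 0.064.

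Genes whose profile over the 6 libraries was most like that of a cyclooxygenase were ranked by the root mean square difference of centred log2 CPM, among genes averaging 50 counts or more. For *Ptgs2* the nearest were *Nup210* (0.22), *Mgl2* (0.25), *Ccnd2* (0.26), *Tmppe* (0.27) and *Zik1* (0.27). Each of the 5 had its highest count in sEH-/- replicate 1, for example 362 for *Nup210* against 128 to 212 in the other libraries and 243 for *Mgl2* against 71 to 139. For *Ptgs1* the nearest were *Akap13* (0.020), *Tep1* (0.020), *Tln1* (0.024), *Cux1* (0.029) and *Ddx17* (0.035), and these followed a nearly flat profile that was lowest in wild-type replicate 3. None of the 10 genes was called. The genes were selected for this likeness, so the shared peak in sEH-/- replicate 1 and the lack of calls follow largely from the ranking itself. The likeness is a description over 6 libraries.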

How the data were processed

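The authors deposited raw counts per gene for 6 libraries of M2c macrophages, 3 per genotype, aligned to mm10. Per the labels they used Trimmomatic 0.39, STAR 2.7.7a, Picard 2.21.7, featureCounts 1.6.5 and DESeq2 1.30.0. The methods give other versions of all but Trimmomatic and another library kit than the labels do. They state that duplicate, multi-mapping, ribosomal and mitochondrial reads were removed and that reads overlapping exons on the correct strand of a single gene were counted. Removing duplicates limits how far the count of an abundant, short transcript can rise.

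The deposited counts were used unchanged. Genes with a mean count over 5 were fitted with edgeR 4.0.16 (R 4.3.3), with TMM factors of 0.982 to 1.03 on library totals of 4400197 to 6096440 and genotype as the only term, and p-values were adjusted by the Benjamini-Hochberg method over all 13785 genes. A gene was called at an adjusted p under 0.05 with more than a 1.5-fold change. The common biological coefficient of variation was 0.0866. In simulated counts for 13622 genes of this comparison, 79 of 99 genes changed 2-fold and 96 of 100 changed 4-fold were called, with 9 false calls. Smaller changes were not simulated. CPM were TMM-scaled, except that sums of markers used library totals. Count ratios used a pseudocount of 0.5 and two-sided exact permutation tests. Alternatives were DESeq2 1.42.0, limma 3.58.1 with voom, RLE factors, library totals alone, no low-count filter, filterByExpr, a replicate block, library total as a covariate, no fold limit, each library left out, and counts adjusted for saturation at 1 per exonic base (added after seeing the data).

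Coordinates and transcript lengths came from GENCODE M21 and promoters from RefSeq (GRCm38.p6), and 19286 of 19309 identifiers were found in GENCODE. The text names all 10 members, of each other list the called genes and the 3 with the highest mean count, the 5 nearest profiles of *Ptgs1* and *Ptgs2*, *Ephx2*, and others where it says so. Genes of the lists and markers with an adjusted p under 0.05 but no call were also named, so these were chosen on the test result. The members and lists were chosen with earlier results of these data known. One further result was left out and is not reported here.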

Additional observations from a re-analysis of the deposited data

How the results depend on the processing

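Over the 15 alternative fits (14 for *Hpgd*, which was not tested under filterByExpr), no member was called in 14 and 1, *Ptges*, in the fit without sEH-/- replicate 3, so that leaving out single libraries gave 0 to 1 called members. With a library left out, the log2 fold change ranged from −0.30 to 0.73 for *Ptgs2*, from −0.0011 to 0.81 for *Hpgd* and from −0.16 to 0.052 for *Ptgir*, and the other 7 members kept their direction in every alternative. For the log2 ratios these ranges were −0.49 to 0.31 for *Ptgs2* to *Ptgs1*, −0.48 to 0.67 for *Ptges* to *Hpgd* and −0.022 to 0.11 for *Ptger4* to *Ptger2*.

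Genes called with a library left out numbered 0 to 1 for the other prostanoid pathway genes, 0 to 1 for substrate supply, 0 to 3 for cAMP response and 0 to 2 for the regulators. Substrate supply had 0 called genes with library totals alone, with no low-count filter, with the replicate block and with the library-total covariate. The regulators had 0 with library totals alone, the replicate block and the covariate. Without the fold limit substrate supply, cAMP response and the regulators had 2 each. In the substrate and regulator lists the calls lost were those of *Lpcat2* and *Cav1*, under the replicate block on the adjusted p (0.055 and 0.057) with the change still past 1.5-fold.

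Same-numbered libraries of the 2 genotypes did not deviate together (correlations of −0.082, −0.260 and −0.037), so the numbers were not taken to pair animals. With the replicate block, no member, 1 other pathway gene and 1 cAMP response gene were called, and 234 of all tested genes were called against 360. The covariate left 171 called. Leaving out sEH-/- replicates 1, 2 and 3 gave 518, 96 and 570, and leaving out wild-type replicates 1, 2 and 3 gave 625, 25 and 6. The cause was not tested. Depth limited *Hpgd* most, at a mean of 8.5 counts.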

Other observations

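Some genes of the lists had changes beyond 1.5-fold in the fit that did not pass the test, and they were picked out after their values were seen. The orphan nuclear receptor genes *Nr4a1* and *Nr4a2*, which prostaglandin E2 and cAMP can induce, had 52, 21 and 30 and 39, 24 and 22 counts in the sEH-/- libraries. In the wild-type libraries they had 17, 16 and 23 and 15, 17 and 17 counts. The log2 fold changes were 0.96 (SE 0.33, edgeR adjusted p = 0.115) for *Nr4a1* and 0.88 (SE 0.27, adjusted p = 0.084) for *Nr4a2*. *Nr4a3* had 17 counts in sEH-/- replicate 1, the library with the highest *Ptgs2*, and 1 to 8 in the others. *Rapgef3*, the gene of the cAMP sensor EPAC1, had 78, 32 and 40 counts in sEH-/- versus 58, 100 and 103 in wild-type libraries (log2 fold change −0.70, adjusted p = 0.138).

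In the other prostanoid pathway list, 2 genes came closest to the threshold without a call. *Abcc4*, which encodes a transporter that exports prostaglandin E2, had 399, 306 and 225 counts in sEH-/- versus 225, 306 and 232 in wild-type libraries (log2 fold change 0.38, adjusted p = 0.084). *Prxl2b*, annotated as a prostamide and prostaglandin F synthase, had 205, 150 and 157 counts in sEH-/- versus 198, 274 and 254 in wild-type libraries (log2 fold change −0.39, adjusted p = 0.058).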
